A study of Mus musculus with 10 samples.

Results

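The genes described here are 42 enzymes that make or break down amino acids, read in RNA sequencing of mouse colon crypts. They were chosen by pathway, in 7 branches: tyrosine breakdown, lysine and hydroxylysine breakdown, asparagine with serine and glycine, branched-chain amino acids, glutamine with glutamate and the transaminases, proline with ornithine and arginine, and the sulfur amino acids. The list was drawn up with earlier results of the same CKO to flox comparison in view, so it was in part selected on measured values: Hpd, Hykk and Asns stood at ranks 3, 10 and 29 by p-value among all tested genes. Their differences between the groups are therefore given as a description and are no independent test. Of the 42 symbols 41 matched 1 of the 33632 gene IDs of the count table, and 38 of these passed the filter on low counts, among 14963 genes that did. Bcat1 was not analysed here.

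The comparison had 2 groups of 5 libraries. The flox libraries came from Sox21fl/fl mice, in which the gene of the transcription factor Sox21 is flanked by loxP sites and for which the labels name no Cre. The CKO libraries came from Lgr5-EGFP-IRES-CreERT2/+;Sox21fl/fl mice, in which a tamoxifen-inducible Cre and a green fluorescent protein are made from the Lgr5 locus, which is active in the stem cells at the crypt base. Both groups had a normal diet and a normal liver. Deletion can take place only in Lgr5-expressing cells and their descendants, while the libraries hold whole crypts. The labels give no age, tamoxifen schedule or time of collection. Nothing in them ties each library to its own animal, so the p-values refer to the spread among libraries, which may be technical. The series concerns signals from hepatocytes to intestinal stem cells and blood glucose, and this comparison asks what Sox21 loss in those stem cells changes in the crypts. The labels name the Cre and fluorescent protein only for CKO, so effects of that allele and of Sox21 loss cannot be told apart.

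Amino acids enter crypt cells from the blood, from the lumen and by synthesis within the cell. Breakdown routes pass their nitrogen to glutamate through transaminases and their carbon to the citric acid cycle or to ketone bodies, and most of the later steps run in mitochondria. Synthesis of asparagine, serine and proline is controlled in many cells by ATF4, a transcription factor made in larger amounts when amino acids are short or the endoplasmic reticulum is stressed, which also drives many aminoacyl-tRNA synthetases and amino acid transporters. Glutamine and ornithine metabolism are prominent in the intestinal epithelium, where ornithine feeds both proline and the polyamines used in proliferation.

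Sequencing gave 18926634 to 23642415 counts per library, and the 41 enzymes took 0.156% to 0.304% of them. Levels are given as CPM, read counts scaled to a common library size by edgeR. Sox21 itself was 1.98, 6.53, 4.06, 2.72 and 4.93 CPM in flox 1 to 5 and 7.79, 6.73, 3.39, 3.51 and 5.27 CPM in CKO 1 to 5. The CKO mean was no lower than the flox mean (4.04 ± 1.80 in flox and 5.34 ± 1.94 CPM in CKO, mean ± SD, n = 5), so its total transcript gives no check of the labels, and directions below are those between libraries as labelled. Lgr5 stood at 2.99 ± 1.68 and 4.73 ± 2.16 CPM. Flox 1 and flox 4 stood apart. Mitochondrially encoded genes took 26.5% and 29.3% of their counts, against 4.30% to 11.8% in the other 8 libraries. Their slopes of log2 CPM on log2 exon length were -0.24 and -0.14, against -0.064 to 0.10, so shorter genes read relatively higher there. For the main results below, values without these 2 libraries are given too. Epithelial markers (Epcam, Cdh1, Krt8, Krt18, Krt20, Vil1, Cdx1 and Cdx2) summed to 12732 to 19444 CPM in flox and 9053 to 16200 CPM in CKO. All 9 goblet cell markers were lower in CKO, with sums of 27359 to 42590 CPM in flox and 14213 to 25970 CPM in CKO. Fibroblast and muscle markers summed to 16.1 to 62.0 CPM in flox and 43.1 to 180.3 CPM in CKO. In bulk crypts, fewer cells of a type and less RNA per cell cannot be told apart.

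Of the 38 tested enzymes 16 were higher and 22 lower in CKO. Their median log2 fold change (CKO over flox) was -0.037, beside 50.1% of all genes higher and a median of 0.0010. By edgeR's quasi-likelihood test 0 enzymes reached an adjusted p under the threshold of 0.05, as did 0 (0%) of all genes. The unadjusted p was under 0.05 for 11 enzymes, 9 lower (Hpd, Fah, Phykpl, Asns, Bcat2, Bckdha, Bckdk, Gpt2 and Pycr1) and 2 higher (Hykk and Csad). Among all genes 13.0% were at such a p, 7.91% lower and 5.05% higher. In 4 enzymes the groups did not overlap: Hpd, Asns and Pycr1 were lower in every CKO library than in any flox library, and Hykk was higher. Across all genes 2.18% did not overlap, 1.26% with CKO below and 0.922% with CKO above. DESeq2, run as an alternative, called 6 enzymes (Hpd, Fah, Hykk, Asns, Bcat2 and Pycr1) at an adjusted p under 0.05, beside 1.21% of genes. Since the list was selected on this contrast, nothing is read from these shares.

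Without flox 1 and flox 4 the tally turned to 20 enzymes higher and 18 lower in CKO, with a median log2 fold change of 0.0068 beside 0.018 over all genes. There were 7 enzymes at an unadjusted edgeR p under 0.05, 6 lower (Hpd, Fah, Asns, Phgdh, Bcat2 and Pycr1) and 1 higher (Hykk). The background there was 6.41% of genes, 3.07% lower and 3.34% higher. By adjusted p edgeR called 0 enzymes and 0% of genes, while DESeq2 called Hpd and Hykk, beside 0.454% of genes. The count of enzymes without overlap, 4 with all libraries, was 8 without flox 5 and 9 without CKO 4.

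**Figure D1:**
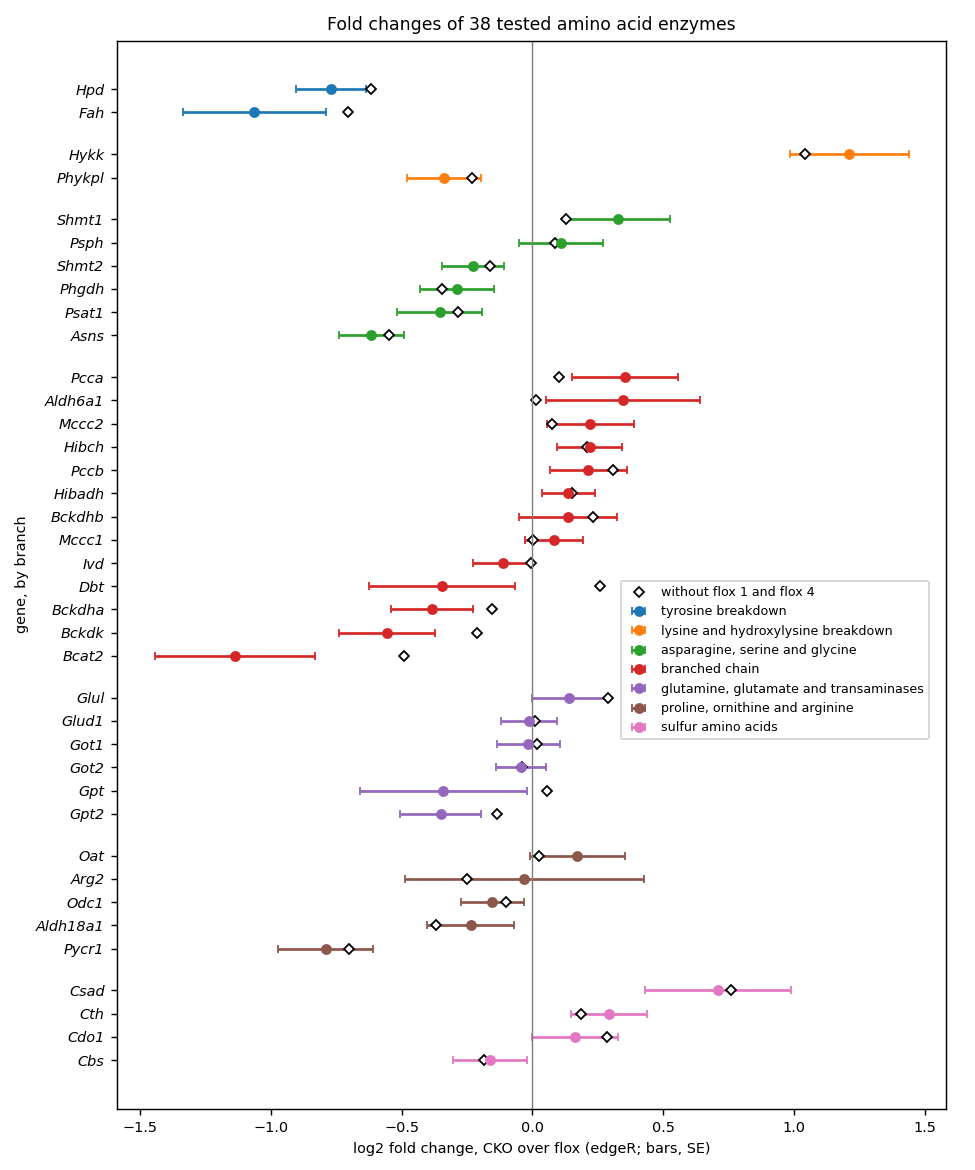
Log2 fold changes, CKO over flox, of the 38 tested enzymes by branch (x axis, log2 scale; filled points with SE bars from edgeR, all 10 libraries), with the value without flox 1 and flox 4 as an open diamond. Hykk lies farthest to the right at 1.21 and Bcat2 farthest to the left at -1.14, and the diamond of Bcat2 lies at -0.49.

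Both measured enzymes of tyrosine breakdown were lower in CKO. Hpd makes homogentisate, the ring compound of the pathway, and Fah carries out the last step, which gives fumarate and acetoacetate. Hpd stood at 123, 89.1, 95.2, 102 and 82.1 CPM in flox 1 to 5 and 57.7, 50.7, 55.3, 68.4 and 55.7 CPM in CKO 1 to 5. The lowest flox library lay above the highest CKO library. Its means were 98.3 ± 15.7 and 57.6 ± 6.61 CPM (SD, n = 5 each). On the log2 scale edgeR put the difference at -0.77 ± 0.13 (SE), adjusted p = 0.174, and at -0.62 when flox 1 and flox 4 were left out. Fah stood at 13.8, 7.88, 9.18, 12.5 and 6.19 CPM in flox 1 to 5 and 4.68, 4.49, 4.67, 7.07 and 2.79 CPM in CKO 1 to 5. Flox 1 and flox 4 were the highest, and CKO 4 lay within the flox range. The log2 fold change of Fah was -1.06 ± 0.27 (SE) (edgeR adjusted p = 0.306) and -0.71 without those 2 libraries. Hgd, which opens the ring of homogentisate between these steps, had 3 counts over the 5 flox libraries and 8 over the 5 CKO libraries and was not tested. Of the 3 listed enzymes the middle one was thus near the detection limit while the other two were read in every library. In FPKM, a deposited measure that by its name scales fragment counts by gene length and library size, Hpd averaged 70.8 (range 55.3 to 104 over 10 libraries). Fah averaged 5.35 (2.77 to 7.48). The sums of goblet markers, like Hpd, were lower in every CKO library than in any flox library, and their part in the result was not tested.

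Of the lysine enzymes, Hykk was higher and Phykpl lower in CKO. Hykk phosphorylates hydroxylysine, which is released when collagen is degraded, and Phykpl cleaves the phosphorylated product. Hykk stood at 1.503, 2.88, 2.01, 1.89 and 2.51 CPM in flox 1 to 5 and 4.86, 4.85, 6.16, 3.62 and 5.73 CPM in CKO 1 to 5. Each CKO library exceeded each flox library. With means of 2.16 ± 0.539 and 5.04 ± 0.977 CPM, Hykk had a log2 fold change of 1.21 ± 0.23 (SE) (edgeR adjusted p = 0.174) and of 1.04 in the 8 libraries that exclude flox 1 and flox 4. As a ratio of CKO to flox its 95% interval was 1.64 to 3.26. Hykk had only 19 to 178 counts per library. Phykpl stood at 13.9, 10.05, 10.7, 10.6 and 10.2 CPM in flox 1 to 5 and 8.80, 7.78, 10.1, 7.90 and 9.09 CPM in CKO 1 to 5. Flox 1 was far above the other flox libraries, and the groups overlapped only in that CKO 3 lay just above flox 2. Its log2 fold change was -0.34 ± 0.14 (SE) (edgeR adjusted p = 0.375), and -0.23 without flox 1 and flox 4. Aass, which begins lysine breakdown in mitochondria, had 0 counts in the 5 flox libraries, which allows up to 0.0301 CPM over the group by counting error, and 3 counts in the 5 CKO libraries. Fibroblast and muscle markers, which include collagens, had their highest sums in CKO 3, CKO 4 and CKO 5 (118, 113 and 180.3 CPM). Hykk in CKO 1 and CKO 2, where those sums were 43.1 and 46.5 CPM, lay above all flox libraries. The part of those cells in the Hykk values was not tested.

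**Figure D2:**
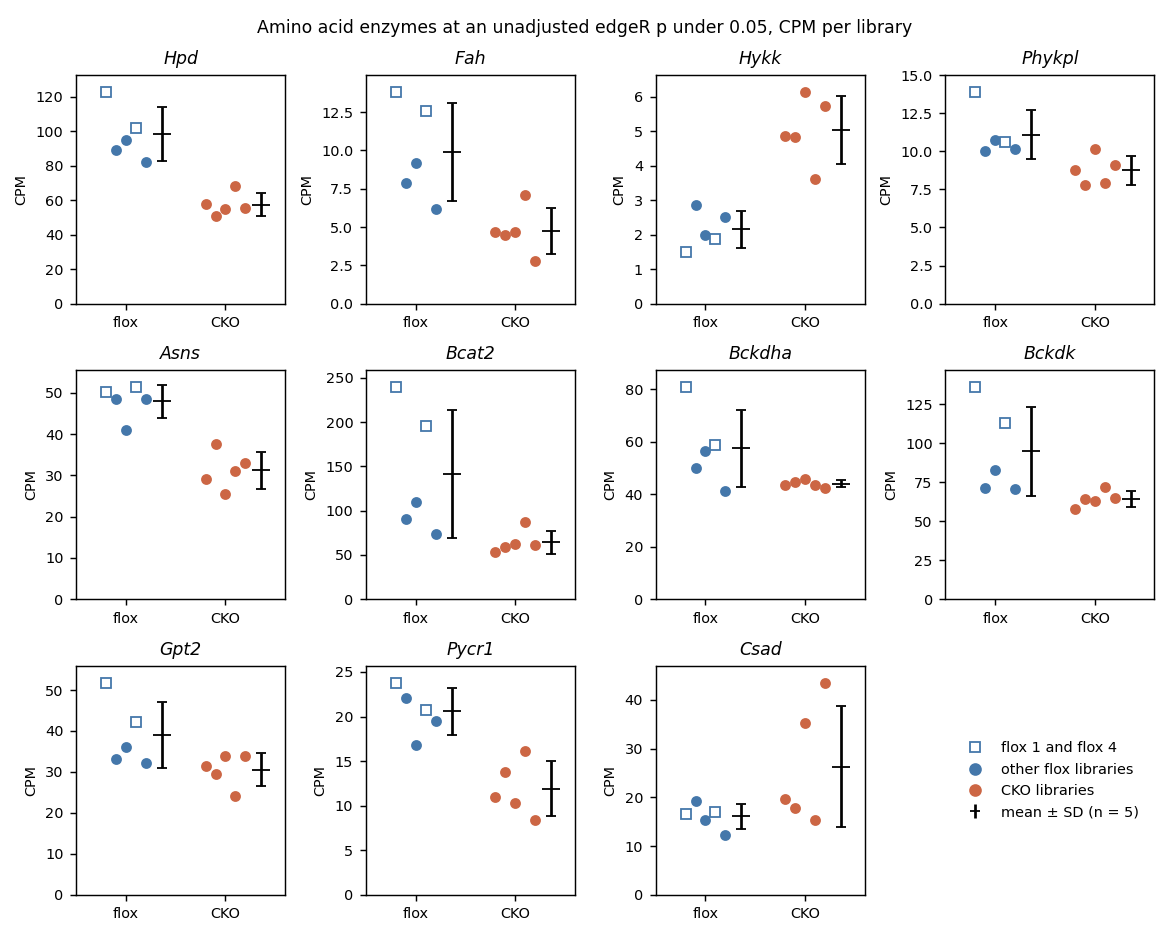
CPM (y axes, from 0) of the 11 enzymes at an unadjusted edgeR p under 0.05 in each library, by group, with the mean ± SD (n = 5) beside each group and open squares for flox 1 and flox 4. Hpd, Hykk, Asns and Pycr1 have groups that do not overlap, and in Hpd, Fah, Asns, Bcat2, Bckdha, Bckdk and Gpt2 the open squares are the 2 highest points.

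In the branch of asparagine, serine and glycine 4 of 6 tested enzymes were lower, with a median log2 fold change of -0.26. Asns, which makes asparagine from aspartate and glutamine, stood at 50.2, 48.5, 41.0, 51.4 and 48.4 CPM in flox 1 to 5 and 29.1, 37.5, 25.6, 30.9 and 33.1 CPM in CKO 1 to 5. The groups did not overlap, although flox 3 lay below the other flox libraries. Means were 47.9 ± 4.06 and 31.2 ± 4.48 CPM, and the log2 fold change was -0.62 ± 0.12 (SE) (edgeR adjusted p = 0.174), or -0.55 if flox 1 and flox 4 are set aside. Phgdh, Psat1 and Psph make serine in succession from a glycolytic intermediate. The middle enzyme, Psat1, stood at 14.95, 15.8, 12.8, 16.6 and 13.9 CPM in flox 1 to 5 and 10.6, 12.3, 9.03, 15.9 and 10.1 CPM in CKO 1 to 5. CKO 4 was the one CKO library within the flox range. The log2 fold change of Psat1 was -0.35 ± 0.16 (SE) (edgeR adjusted p = 0.386), and -0.28 without flox 1 and flox 4. Phgdh was at 27.4 ± 4.23 and 22.5 ± 3.32 CPM and Psph, the last enzyme, at 6.77 ± 0.669 and 7.30 ± 1.26 CPM in flox and CKO, with log2 fold changes of -0.29 and 0.11. The pair of hydroxymethyltransferases that turn serine into glycine differed in sign: cytosolic Shmt1 had a log2 fold change of 0.33 and mitochondrial Shmt2 one of -0.23, neither past the test. That of Shmt1 was 0.13 without flox 1 and flox 4. Gldc, the decarboxylase of the glycine cleavage system, had 1 to 8 counts per library and was not tested.

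Among enzymes of proline, ornithine and arginine, Pycr1 was the one whose groups did not overlap. It carries out the last step of proline synthesis in mitochondria. Pycr1 stood at 23.8, 22.1, 16.8, 20.8 and 19.5 CPM in flox 1 to 5 and 10.98, 13.8, 10.3, 16.1 and 8.35 CPM in CKO 1 to 5. CKO 4, the highest CKO library, lay just under flox 3, the lowest flox library. Means were 20.6 ± 2.65 and 11.9 ± 3.07 CPM, and the log2 fold change was -0.79 ± 0.18 (SE) (edgeR adjusted p = 0.255), or -0.70 if flox 1 and flox 4 are set aside. Aldh18a1, which begins proline synthesis from glutamate, stood at 45.5, 80.1, 47.7, 46.2 and 51.3 CPM in flox 1 to 5 and 42.3, 51.7, 42, 42.3 and 51.7 CPM in CKO 1 to 5. Flox 2 alone was high, the groups overlapped, and the log2 fold change was -0.24 ± 0.17 (SE). It was -0.37 without flox 1 and flox 4, and -0.050 without flox 2. Oat, which links ornithine to proline, was at 126 ± 31.7 and 142 ± 24.0 CPM in flox and CKO. Odc1, the entry to polyamine synthesis, was at 197 ± 15.7 and 177 ± 20.5 CPM, and Arg2, the mitochondrial arginase, at 6.91 ± 1.69 and 6.81 ± 3.67 CPM. The log2 fold changes of Oat, Odc1 and Arg2 were 0.17, -0.15 and -0.031, and 0.024, -0.10 and -0.25 without flox 1 and flox 4. The 95% interval of the Arg2 ratio ran from 0.491 to 1.95. Arg2 was 0.920 CPM in CKO 5 and 6.53 to 10.7 CPM in the other CKO libraries.

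Asns and Pycr1 are textbook targets of ATF4, so promoters were searched for TGATGNAA, the core of the C/EBP-ATF response element, on both strands (the only motif searched). Windows ran from 250 bases before to 50 after each start in RefSeq's GRCm38.p6 annotation. Windows were found for 36 of the 41 enzymes, of which 3 (8.33%) held the motif, against 4.51% of all 27025 genes and 3.97% of all 32851 windows. The 3 were Asns, Pycr1 and Got1. The motif was chosen with Asns and Pycr1 in view, so nothing is read from this share. Their 250 upstream bases are shown, 5′ to 3′ on the gene's strand, because 2 of them belong to the enzymes whose groups did not overlap, with the motif in capitals.
Asns, chr6:7693210-7693459, minus strand: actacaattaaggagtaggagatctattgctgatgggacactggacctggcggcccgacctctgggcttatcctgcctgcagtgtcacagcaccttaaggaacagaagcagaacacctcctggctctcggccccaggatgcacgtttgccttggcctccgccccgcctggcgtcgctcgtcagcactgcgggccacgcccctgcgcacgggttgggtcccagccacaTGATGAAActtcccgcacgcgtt
Pycr1, chr11:120643749-120643998, minus strand: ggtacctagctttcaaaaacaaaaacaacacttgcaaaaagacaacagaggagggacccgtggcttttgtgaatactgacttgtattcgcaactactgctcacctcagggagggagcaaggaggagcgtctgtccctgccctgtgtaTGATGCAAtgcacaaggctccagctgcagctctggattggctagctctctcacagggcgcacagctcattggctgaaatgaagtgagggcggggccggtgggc
Got1, chr19:43524606-43524855, minus strand: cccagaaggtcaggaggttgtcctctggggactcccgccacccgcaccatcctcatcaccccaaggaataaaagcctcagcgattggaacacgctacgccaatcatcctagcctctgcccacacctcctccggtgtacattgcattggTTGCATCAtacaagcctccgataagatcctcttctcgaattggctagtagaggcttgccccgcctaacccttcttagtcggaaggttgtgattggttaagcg
The first base of the match lies 23 bases before the start in Asns, 103 in Pycr1 and 102 in Got1, where it is on the opposite strand. Got1, cytosolic aspartate transaminase, had a log2 fold change of -0.016 in the same libraries. Hpd and Hykk had no match in these windows. A match is a description of letters and not a measured binding site. The sums of goblet markers, like Asns and Pycr1, were lower in every CKO library than in any flox library. The part of goblet cells in the Asns and Pycr1 values was not tested.

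Genes around ATF4 that are not among the 42 enzymes were read from 2 lists. Of 20 cytosolic aminoacyl-tRNA synthetase genes, which charge tRNAs with amino acids, 16 were lower and 4 higher in CKO. Their median log2 fold change was -0.24 (-0.14 without flox 1 and flox 4). None (0) was called by edgeR after adjustment. The unadjusted p was under 0.05 for 8 lower and 0 higher, and 3 lower without those 2 libraries, beside 7.91% and 3.07% of all genes lower at such a p. In 4 of them (Aars, Nars, Tars and Wars) all CKO libraries lay below all flox libraries, beside 1.26% of all genes. The sums of goblet markers did so too, at 27359 to 42590 CPM in flox and 14213 to 25970 CPM in CKO. The part of goblet cells in the synthetase values was not tested. Wars, for tryptophan, stood at 423, 225, 331, 459.5 and 218 CPM in flox 1 to 5 and 175, 185, 147, 208 and 184 CPM in CKO 1 to 5. Flox 1 and flox 4 were highest, and its log2 fold change of -0.88 ± 0.22 (SE) was -0.51 without them. Tars, for threonine, stood at 79.2, 85.5, 81.7, 78.4 and 83.2 CPM in flox 1 to 5 and 68.5, 70.7, 64.3, 60.2 and 71.1 CPM in CKO 1 to 5. Its flox libraries lay close together, and its log2 fold change was -0.29 ± 0.094 (SE) and -0.31 without flox 1 and flox 4. Aars and Cars had log2 fold changes of -0.55 and -0.60, and of -0.35 and -0.31 without them. Wars is also induced by interferon. Over all 10 libraries DESeq2 called Wars and Tars (adjusted p = 0.0224 and 0.0162), beside 1.21% of all genes. Without flox 1 and flox 4 DESeq2 called 0 synthetases, beside 0.454% of all genes. The motif was in 5 of the 13 synthetase genes with a window: Aars, Gars, Iars, Tars and Yars. Synthetases were listed because ATF4 drives many of them, so nothing is read from this share either.

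Of 20 genes of the ATF4 axis, its regulators and known targets, 14 were lower and 6 higher, and the median was -0.16. At an unadjusted p under 0.05 3 were lower (Nupr1, Atf5 and Ppp1r15a) and 1 higher (Ddit4), beside 7.91% and 5.05% of all genes, and 0 passed the adjusted threshold in edgeR. Atf4 mRNA was at 147 ± 12.6 and 128 ± 15.3 CPM in flox and CKO, or -0.21 ± 0.12 (SE) as a log2 fold change (edgeR adjusted p = 0.440). ATF4 is controlled largely at translation, which was not measured. Nupr1, a stress-induced cofactor, and Atf5, a related factor, had log2 fold changes of -1.17 and -0.67, which were -0.51 and -0.28 without flox 1 and flox 4. Ddit4, an inhibitor of mTORC1 signalling, went the other way at 0.84 (0.87 without them). Over all 10 libraries DESeq2 called it (adjusted p = 0.0361), beside 1.21% of all genes. Without flox 1 and flox 4 DESeq2 called 0 genes of this list, beside 0.454% of all genes. The sign of Ddit3, a stress-induced factor, turned from -0.52 to 0.46. The transporters Slc7a11, Slc7a5 and Slc3a2 had -0.27, -0.12 and 0.0053, and -0.28, -0.33 and -0.11 without flox 1 and flox 4. The motif was in 5 of 19 genes with a window: Chac1, Nupr1, Slc7a11, Trib3 and Vldlr. This list was written from known targets, so its share says nothing on these libraries.

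**Figure D3:**
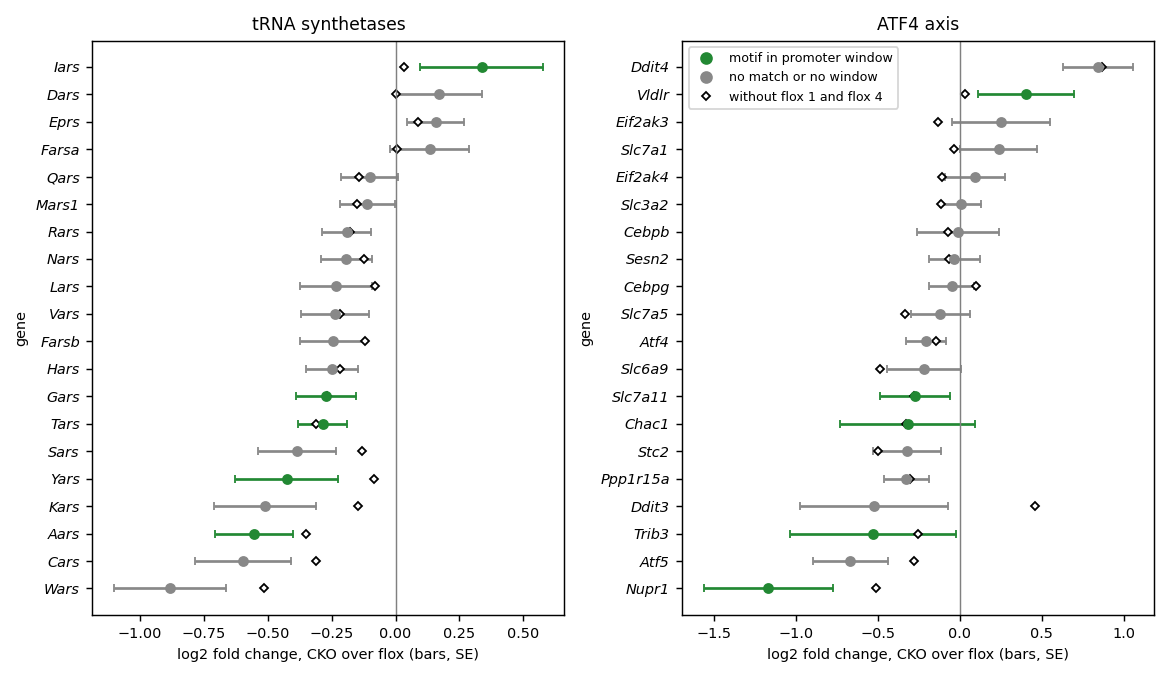
Log2 fold changes, CKO over flox, of 20 tRNA synthetase genes and 20 genes of the ATF4 axis (points with SE bars; open diamonds, without flox 1 and flox 4), with genes whose promoter window holds TGATGNAA in green. Of the synthetases 16 lie left of 0, from -0.88 for Wars, and of the ATF4 axis 14 do.

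The branched-chain enzymes did not move as 1 group: 8 of 13 were higher and 5 lower in CKO, with a median log2 fold change of 0.14. The lower ones were Bcat2, Bckdha, Dbt and Bckdk, which act at or on the shared first steps, and Ivd. Bckdhb, of the same step as Bckdha, was higher (0.14), and Dbt was higher without flox 1 and flox 4 (0.26). Bcat2, the mitochondrial transaminase that starts the breakdown of leucine, isoleucine and valine, stood at 239, 90.01, 109, 196 and 73.7 CPM in flox 1 to 5 and 53.0, 59.0, 62.0, 86.8 and 60.9 CPM in CKO 1 to 5. Flox 1 and flox 4 were far above the other flox libraries, and CKO 4 lay within the range of the rest of flox. The log2 fold change of Bcat2 was -1.14 ± 0.31 (SE) (edgeR adjusted p = 0.311) and -0.49 without those 2 libraries. Bckdha, a subunit of the dehydrogenase that carries out the next and irreversible step, stood at 80.8, 50.1, 56.6, 58.9 and 41.4 CPM in flox 1 to 5 and 43.6, 44.8, 45.7, 43.7 and 42.3 CPM in CKO 1 to 5. The CKO values were nearly equal, with an SD of 1.30 CPM against 14.7 in flox, and the log2 fold change of -0.38 ± 0.16 (SE) was -0.16 without flox 1 and flox 4. Bckdk, the kinase that inactivates this dehydrogenase, stood at 136, 71.5, 83.0, 113 and 70.5 CPM in flox 1 to 5 and 57.8, 63.9, 63.2, 71.9 and 64.8 CPM in CKO 1 to 5. Its flox range met the CKO range at 70.5 and 71.9 CPM, and its log2 fold change of -0.56 ± 0.18 (SE) was -0.21 without the 2 libraries. The edgeR fit gave an adjusted p of 0.374 and 0.365 for these 2 genes.

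Dbt, the acyltransferase core of the same complex, had 44.4 and 36.04 CPM in flox 1 and flox 4 and 17.4 to 17.8 CPM in the other flox libraries, so its log2 fold change of -0.35 turned to 0.26 without them. Bckdhb, the partner of Bckdha, had 0.14 (0.23). Of the enzymes further down, Pcca, Aldh6a1, Mccc1 and Mccc2 went the other way in flox 1 and flox 4, while Ivd was highest of the 10 libraries in flox 4. Mccc1 was lowest in flox 1 and flox 4 at 21.8 and 22.2 CPM, and so was Mccc2 at 11.9 and 15.2 CPM. Pcca, the biotin-carrying subunit of propionyl-CoA carboxylase, stood lowest there, at 18.3 and 26.4 CPM against 32.5 to 48.2 CPM in the other 8 libraries. Aldh6a1, which acts late in the valine route, was likewise lowest in flox 1 and flox 4 at 4.83 and 8.84 CPM. The log2 fold changes of Pcca and Aldh6a1 went from 0.35 and 0.35 to 0.10 and 0.012 without them. Pccb, the partner of Pcca, had 0.21 and 0.31. Mccc1 and Mccc2, the carboxylase of leucine breakdown, had 0.083 and 0.22, Ivd, the dehydrogenase before it, -0.11, and the valine enzymes Hibch and Hibadh 0.22 and 0.14, all with an edgeR adjusted p above that of Bckdha. Without flox 1 and flox 4, those of Mccc1, Mccc2 and Ivd were 0.0026, 0.073 and -0.0071, and those of Hibch and Hibadh 0.21 and 0.15. The annotated exon lengths were 3900, 1899, 3695 and 3348 bases for Bcat2, Bckdha, Bckdk and Dbt, and 5210 and 5784 for Pcca and Aldh6a1, with a median of 4137 over tested genes. Mccc1, Mccc2 and Ivd had 10952, 2802 and 5505 bases. Bckdhb, Pccb, Hibch and Hibadh had 1805, 2771, 6059 and 10179 bases. These lengths join all annotated exons of a gene, and the transcripts read may be shorter. The part of the mitochondrial share and the length slope of flox 1 and flox 4 in these differences was not tested.

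**Figure D4:**
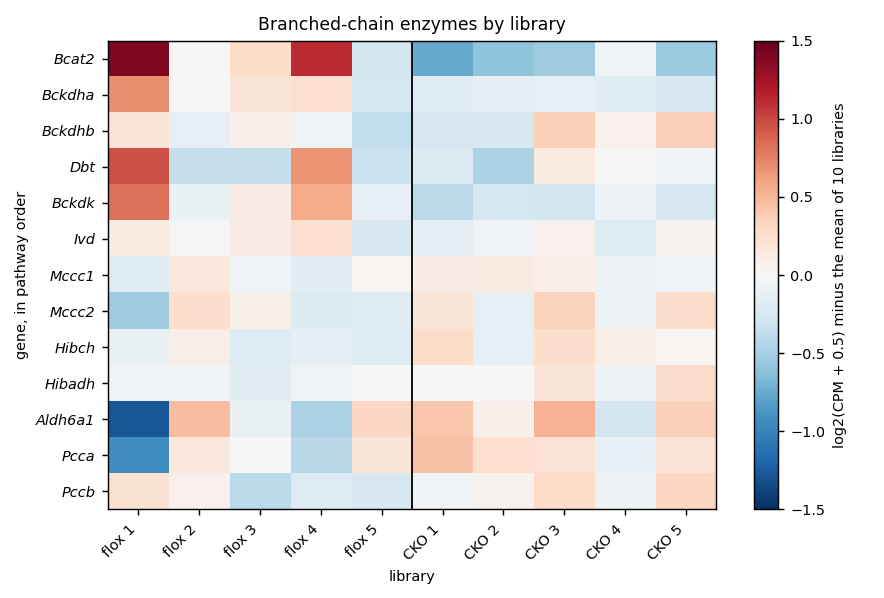
Branched-chain enzymes (rows, in pathway order) in each library (columns), as log2(CPM + 0.5) minus the mean of the 10 libraries, red above and blue below. Bcat2, Bckdk and Dbt are reddest in flox 1 and flox 4, while Pcca and Aldh6a1 are bluest there, and Bcat2 is blue in CKO 1, 2, 3 and 5.

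Over all 10 libraries, enzymes of glutamine and glutamate lay near equal levels in both groups, apart from the alanine transaminases. Of 6 tested, 5 were lower and 1 higher, and the median on the log2 scale was -0.030. Without flox 1 and flox 4 the tally turned to 2 lower and 4 higher, with a median of 0.014. Glul then had the largest log2 fold change of the 6, at 0.29. Gpt2, the mitochondrial alanine transaminase, stood at 51.8, 33.1, 36.01, 42.1 and 32.3 CPM in flox 1 to 5 and 31.6, 29.4, 33.9, 24.1 and 33.8 CPM in CKO 1 to 5. Flox 1 and flox 4 were again the highest, and the log2 fold change of -0.35 ± 0.16 (SE) (edgeR adjusted p = 0.381) was -0.14 without them. Gpt, its cytosolic partner, stood at 156, 73.9, 102, 131 and 68.0 CPM in flox 1 to 5 and 93.2, 84.7, 78.7, 128 and 34.6 CPM in CKO 1 to 5. CKO 5 was the lowest of all libraries, and the log2 fold change of -0.34 ± 0.32 (SE) turned to 0.054 without flox 1 and flox 4. Glud1, which releases ammonia from glutamate, was at 112 ± 7.93 and 111 ± 9.86 CPM in flox and CKO, and its ratio had a 95% interval of 0.845 to 1.16. Those of Got1 and Got2, the aspartate transaminases, ran from 0.824 to 1.19 and from 0.839 to 1.12. Glul, which makes glutamine, was at 417 ± 60.2 and 459 ± 43.4 CPM, a log2 fold change of 0.14 ± 0.14 (SE), or 0.29 without flox 1 and flox 4. Got2 varied little among libraries, with a coefficient of variation of 5.37% in flox and 4.90% in CKO.

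In the sulfur branch Csad and Cth were higher in CKO. Csad makes hypotaurine on the way to taurine. It stood at 16.5, 19.3, 15.4, 16.9 and 12.3 CPM in flox 1 to 5 and 19.6, 17.9, 35.2, 15.2 and 43.5 CPM in CKO 1 to 5. The high values were those of CKO 3 and CKO 5, while CKO 1, CKO 2 and CKO 4 overlapped flox. The log2 fold change was 0.71 ± 0.28 (SE) (edgeR adjusted p = 0.373). It was 0.76 without flox 1 and flox 4, and 0.45 without CKO 5. Colonocyte markers had their lowest sums in CKO 3 and CKO 5, 7484 and 4614 CPM, against 9127 to 14132 CPM elsewhere. Csad is abundant in liver. The 4 hepatocyte markers summed to 33.0 and 45.6 CPM in CKO 3 and CKO 5 and to 5.88 to 12.3 CPM in the other libraries, and 2 of the 3 tested, Ttr and Alb, were higher in CKO at an unadjusted p under 0.05. Ttr, also made by other cells, took 31.2 and 43.9 CPM of those sums, Alb was at most 1.66 CPM in any library, and Cyp2e1 was at 0 in all CKO libraries. The part of these cell types in the Csad values was not tested. Cth, which releases cysteine from cystathionine, stood at 43.9, 55.8, 57.0, 51.2 and 62.3 CPM in flox 1 to 5 and 84.3, 64.6, 68.5, 62.5 and 51.0 CPM in CKO 1 to 5. CKO 1 was the highest and the groups overlapped, with a log2 fold change of 0.29 ± 0.15 (SE) (edgeR adjusted p = 0.401). That of Cth was 0.19 without flox 1 and flox 4. Cbs, which makes cystathionine, was at 108 ± 22.6 and 96.9 ± 2.82 CPM, and Cdo1, which oxidizes cysteine ahead of Csad, at 30.7 ± 4.97 and 34.3 ± 7.003 CPM, with log2 fold changes of -0.16 and 0.16, and of -0.18 and 0.29 without flox 1 and flox 4.

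Levels were compared between enzymes in FPKM, which divides by gene length. These values are not scaled for the mitochondrial share, so they are compared within libraries and not between groups. From flox 1 to flox 2, Hpd went from 123 to 89.1 CPM and from 65.05 to 104 FPKM. Mccc1 went from 21.8 to 28.3 CPM and from 12.8 to 15.5 FPKM. The scaling was thus not by 1 fixed length per gene, which limits the comparisons between enzymes. Over 10 libraries Glul was the most abundant at 183 FPKM (112 to 271), followed by the polyamine enzyme Odc1 at 104 FPKM (65.7 to 123). Oat, Bcat2, Pccb, Gpt and Hpd followed with means of 77.6, 75.4, 75.4, 72.8 and 70.8 FPKM, and their ranges overlapped. At the lower end of tested enzymes stood Psph, Aldh6a1 and Hykk, with 5.22, 4.79 and 0.838 FPKM. Serine synthesis was uneven, with Phgdh above Psat1 in 10 of 10 libraries by 1.71 to 3.22 times. Got2 exceeded Got1 in 10 of 10 libraries, by 1.42 to 1.97 times. The reverse held for alanine, where Gpt2 was 0.0654 to 0.388 times Gpt. Shmt1 exceeded Shmt2 in 8 of 10 libraries, with flox 3 and flox 4 as exceptions. Of subunits that act together, Bckdha exceeded Bckdhb by 2.29 to 6.17 times, Pcca was 0.177 to 0.354 times Pccb, and Mccc1 was 0.752 to 1.82 times Mccc2.

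**Figure D5:**
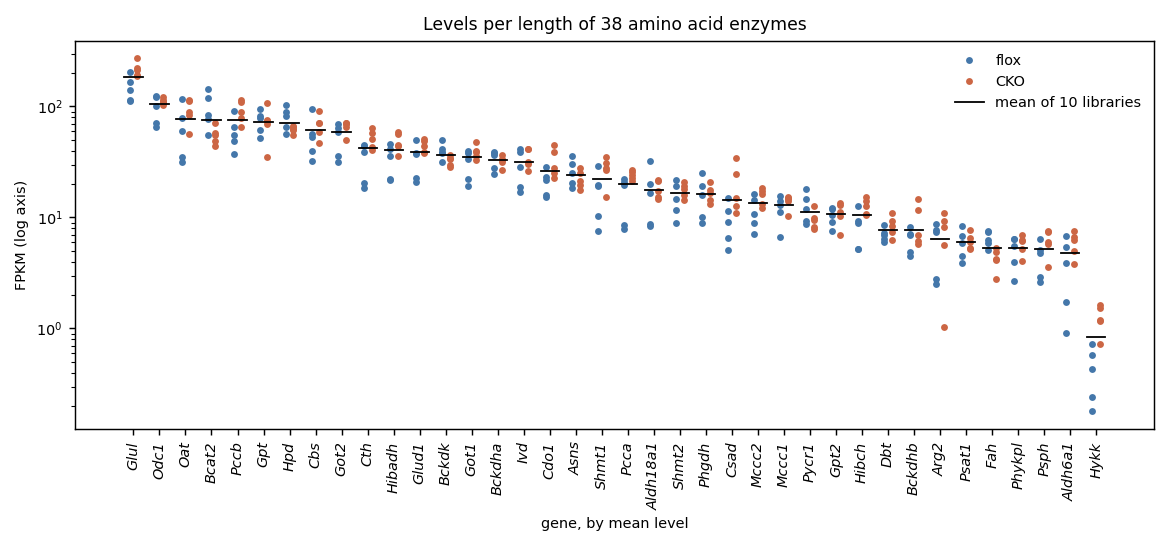
FPKM on a log axis of the 38 tested enzymes, ordered by their mean over 10 libraries (black lines), with 1 point per library (blue, flox; red, CKO). The means run from 183 for Glul to 0.838 for Hykk.

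Other genes of the same routes were counted by list, and edgeR called 0 of them by adjusted p. For comparison with each list, 50.1% of all genes were higher in CKO. At an unadjusted p under 0.05 5.05% of all genes were higher and 7.91% lower, or 3.34% and 3.07% without flox 1 and flox 4. In tyrosine metabolism 0 of 7 were higher and 7 lower, the median being -0.15 on the log2 scale, with 0 higher and 0 lower at an unadjusted p under 0.05. Leaving out flox 1 and flox 4 made this 3 higher and 4 lower, with a median of -0.0015. The smallest p were those of Fahd1 (-0.33), Mif (-0.46), Gstz1 (-0.15) and Tat (-0.33), which had -0.0015, 0.092, -0.15 and -0.48 without those 2 libraries. Gstz1 isomerizes maleylacetoacetate just before Fah, and its CKO libraries all lay below flox at 30.4 ± 1.47 and 27.5 ± 1.49 CPM. In lysine breakdown 4 of 7 were higher and 3 lower, the median being 0.024 on the log2 scale, with 0 higher and 1 lower at an unadjusted p under 0.05, led by Aldh7a1 (-0.32) and Pipox (0.35). Leaving out flox 1 and flox 4 gave 3 higher and 4 lower, with a median of -0.025. In serine and folate metabolism 4 of 13 were higher and 9 lower, the median being -0.13 on the log2 scale, with 0 higher and 1 lower at an unadjusted p under 0.05. Its lowest p was that of Mthfd2, the mitochondrial folate enzyme, at 16.6 ± 2.67 and 11.9 ± 2.09 CPM (log2 fold change -0.47, -0.31 without flox 1 and flox 4, where 6 genes of the list were higher and 7 lower). Of further branched-chain genes 8 of 13 were higher and 5 lower, the median being 0.069 on the log2 scale, with 1 higher and 1 lower at an unadjusted p under 0.05. Auh, a hydratase of leucine breakdown, had -0.33 and Abat, the GABA transaminase, 0.47.

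On the side of glutamine use, 12 of 14 were higher and 2 lower, the median being 0.29 on the log2 scale. At an unadjusted p under 0.05 3 were higher and 0 lower, beside 5.05% and 7.91% of all genes. Ppat, which begins purine synthesis with glutamine, and Gfpt2, of hexosamine synthesis, had 0.66 and 1.53. The median of this list was 0.058 without flox 1 and flox 4. For proline and polyamines 7 of 18 were higher and 11 lower, the median being -0.075 on the log2 scale, with 1 higher and 0 lower at an unadjusted p under 0.05. The tally turned to 12 higher and 6 lower without flox 1 and flox 4, with a median of 0.037. The gene at such a p over all 10 libraries was Arg1, the cytosolic arginase, at 3.505 ± 2.01 and 9.67 ± 5.75 CPM in flox and CKO. Without flox 1 and flox 4, 0 genes of this list were at such a p. In sulfur metabolism 8 of 15 were higher and 7 lower, the median being 0.0078 on the log2 scale, with 1 higher and 0 lower at an unadjusted p under 0.05. It was Mtap, which recycles methylthioadenosine, at 0.45. This list, too, had 0 genes at such a p without flox 1 and flox 4. Of amino acid transporters 10 of 16 were higher and 6 lower, the median being 0.28 on the log2 scale, with 0 higher and 1 lower at an unadjusted p under 0.05. The lower one was Slc43a2 at -0.39, and the median was 0.029 without flox 1 and flox 4. Fitted over 141 further tested genes of these lists, 62 were higher and 79 lower, with a median of -0.070, and 67 were higher and 74 lower without flox 1 and flox 4, with a median of -0.014.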

How the data were processed

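RNA of mouse colon crypts was sequenced in 10 libraries, 5 flox and 5 CKO, grouped by the genotype labels. The authors deposited whole-number read counts per gene and FPKM values (by name, fragments scaled by gene length and library size). The submitters' processing notes name fastp and HISAT2, and the build is not given in the sources used here. IDs were named through a RefSeq table. Counts were fitted with edgeR 4.0.16 (filterByExpr, TMM scaling, robust quasi-likelihood test, group as the only term, Benjamini-Hochberg adjustment over 14963 genes, threshold 0.05), in R 4.3.3, and checked on simulated data. DESeq2 1.42.0 and other filters, scalings and library sets were alternatives. The deposited FPKM served only for levels within libraries. Intervals are 95%, and the limit for 0 counts is 3 counts. Members and lists were chosen with earlier results of these data known. Values in every library are given for members at an unadjusted p under 0.05 and, in branches with fewer than 2 of them, the 2 smallest p; of each other list up to 4 genes with the smallest p were to be named. Promoter windows and sequences come from RefSeq (GRCm38.p6). No columns were left unmapped, no 2 libraries were duplicates, and protein sequences were not used here. Values of 1 gene of the other lists are not reported here.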

Additional observations from a re-analysis of the deposited data

Results flagged for a closer look

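In 6 of 76 sets of 5 libraries (38 enzymes, each in flox and in CKO), 1 library lay far from the other 4 by Dixon's criterion, which chance meets in about 1 of 20. Phykpl was 13.9 CPM in flox 1 and 10.05 to 10.7 CPM in the other flox libraries. Asns was 41.0 CPM in flox 3, below 48.4 to 51.4 CPM in the others. Aldh18a1 was 80.1 CPM in flox 2 against 45.5 to 51.3 CPM, and Hibch 16.2 CPM in the same library against 13.1 to 13.8 CPM. In CKO, Phgdh was 28.2 CPM in CKO 2 and 19.7 to 21.9 CPM in the others, and Bcat2 was 86.8 CPM in CKO 4 and 53.0 to 62.0 CPM in the others.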

How the results depend on the processing

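By edgeR 0 enzymes passed the adjusted threshold under each alternative filter, scaling, library set and left-out library, while DESeq2 called 6. The count over all genes, 0 in edgeR, was 3 with no filter on low counts, 178 by DESeq2 and 0 to 2 with 1 library left out (2 without flox 2). At an unadjusted p there were 11 enzymes, 7 without flox 1 and flox 4 and 8 to 13 with 1 library left out. Enzymes whose groups did not overlap, 4 in all libraries, numbered 4 to 9 (8 without flox 5, 9 without CKO 4). The median over all enzymes, -0.037, ran from -0.10 (without CKO 2) to -0.017 with 1 library left out, and was -0.013 with no filter, -0.075 with the replicate block and 0.0068 without flox 1 and flox 4. Of the 38 enzymes 33 had the same sign under every setting. Without flox 1 and flox 4 the sign turned for Dbt (0.26), Glud1 (0.011), Got1 (0.017) and Gpt (0.054), and with no filter for Glud1 (0.0098) and Got1 (0.0073); the cause was not tested. With 1 library left out, the sign also turned for Arg2 (-0.25 to 0.26), Glud1 (-0.049 to 0.022) and Got1 (-0.095 to 0.045). Correlations between same-numbered libraries of the groups ran from -0.30 to 0.40. Flox 2 and flox 4 correlated best with the CKO library of their own number, and flox 1, flox 3 and flox 5 with another. The numbers were therefore not taken as pairs. With the replicate block edgeR called 0 enzymes and 0 genes, with 8 enzymes at an unadjusted p under 0.05. Depth limits Hykk, Hgd, Aass and Gldc most.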

Other observations

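The enzymes were also counted by where in the cell they mainly act, a split made after their values were seen. Of 21 tested mitochondrial enzymes 9 were higher and 12 lower in CKO, with a median of -0.031 on the log2 scale, and 5 were at an unadjusted edgeR p under 0.05, all lower (Bcat2, Bckdha, Bckdk, Gpt2 and Pycr1). Of 15 cytosolic enzymes 6 were higher and 9 lower, with a median of -0.15, and 4 were at such a p, Hpd, Fah and Asns lower and Csad higher. Beside these counts, 7.91% of all genes were lower and 5.05% higher at such a p. Without flox 1 and flox 4 the mitochondrial and cytosolic medians were 0.0026 and 0.017. At such a p there were then 2 mitochondrial and 4 cytosolic enzymes, all lower, beside 3.07% of all genes lower.

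The spread among libraries differed between the groups for some enzymes. Bcat2 and Dbt had coefficients of variation of 50.9% and 48.0% in flox and of 20.2% and 16.3% in CKO. Bckdha and Cbs had 25.5% and 20.9% in flox and 2.96% and 2.91% in CKO. Arg2 and Csad went the other way, with 24.4% and 15.8% in flox and 53.9% and 47.1% in CKO. CKO 5 was the lowest of the 10 libraries for Arg2 (0.920 CPM) and Gpt (34.6 CPM) and the highest for Csad. It also had the lowest sum of colonocyte markers (4614 CPM) and the highest sum of fibroblast and muscle markers (180.3 CPM), and the part of cell makeup in these values was not tested.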
